A study of Mus musculus with 16 samples.

Results

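Transcripts of 10 autophagy genes were measured in tibialis anterior, a fast muscle of the lower leg, in mouse offspring that differed in the diet of their dam and in their own diet. The genes are Map1lc3a, Map1lc3b, Gabarapl1, Sqstm1, Bnip3, Ulk1, Becn1, Atg7, Ctsl and Tfeb. They were found by matching the RefSeq accession of each non-control array probe to a gene symbol, which gave 13 of the 41174 probes and 10 of the 32678 genes or unmatched accessions on the array. Control offspring came from normally fed dams. Undernourished offspring came from dams whose food was cut by 50% in week 3 of gestation, the study's model of low birth weight. Both kinds of offspring were studied either with free access to food (ad libitum, AL) or under calorie restriction (CR), and the 4 groups are named by the dam's diet first and the offspring's diet second (control AL, undernourished CR and so on). RNA of 8 mice per group was pooled in pairs, which left 4 arrays per group and 16 in all. Strain, sex, age, the degree and length of calorie restriction, and which litters the pooled mice came from are not given in the sources used here. The p-values thus measure the spread between pools, and pools that share a litter would not be independent.

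Autophagy encloses parts of the cytoplasm in a membrane sac, the autophagosome, which fuses with lysosomes so that its content is broken down and reused. In skeletal muscle it is known to be induced by fasting, to supply amino acids and to clear damaged mitochondria. The ULK1 kinase and the Beclin 1 lipid kinase complex (Becn1) start the process, ATG7 drives the conjugation of LC3 and GABARAP proteins to the membrane, and receptors such as p62 (Sqstm1) and BNIP3 bring cargo to them. Cathepsin L (Ctsl) is a lysosomal protease, and TFEB is a transcription factor of lysosome and autophagy genes. Transcript levels do not measure the flux through this pathway, since many of its proteins are themselves degraded in it.

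Promoter sequence is shown for the 3 members whose transcripts fell with calorie restriction in both kinds of offspring, Gabarapl1, Ulk1 and Sqstm1, and for Bnip3, a member that was not called and whose window holds the CACGTG core bound by TFEB and related factors. RefSeq windows on GRCm38.p6 were at hand for 8 of the 10 members, all but Map1lc3a and Becn1. Each line gives the 250 bases before the annotated transcription start, 5′ to 3′ on the gene's strand, with CACGTG in capitals. The Ulk1 line holds 211 bases, because its window was cut where another Ulk1 transcript begins. The windows are chr6:129532942-129533191 on the plus strand for Gabarapl1, and, on the minus strand, chr5:110810121-110810331 for Ulk1, chr11:50210821-50211070 for Sqstm1 and chr7:138909507-138909756 for Bnip3.
Gabarapl1: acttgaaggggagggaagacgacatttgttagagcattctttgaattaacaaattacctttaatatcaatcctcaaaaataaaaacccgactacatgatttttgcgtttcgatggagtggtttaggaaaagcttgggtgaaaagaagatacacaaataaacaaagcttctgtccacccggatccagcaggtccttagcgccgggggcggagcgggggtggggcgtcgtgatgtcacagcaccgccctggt
Ulk1: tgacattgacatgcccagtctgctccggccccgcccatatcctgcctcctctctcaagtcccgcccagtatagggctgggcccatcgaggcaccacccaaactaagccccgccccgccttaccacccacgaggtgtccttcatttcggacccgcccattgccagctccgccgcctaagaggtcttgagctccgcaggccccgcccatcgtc
Sqstm1: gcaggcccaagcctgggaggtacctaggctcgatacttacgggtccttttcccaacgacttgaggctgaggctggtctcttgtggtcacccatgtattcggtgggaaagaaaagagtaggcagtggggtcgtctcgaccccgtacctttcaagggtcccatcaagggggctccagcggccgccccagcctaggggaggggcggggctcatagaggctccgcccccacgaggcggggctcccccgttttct
Bnip3: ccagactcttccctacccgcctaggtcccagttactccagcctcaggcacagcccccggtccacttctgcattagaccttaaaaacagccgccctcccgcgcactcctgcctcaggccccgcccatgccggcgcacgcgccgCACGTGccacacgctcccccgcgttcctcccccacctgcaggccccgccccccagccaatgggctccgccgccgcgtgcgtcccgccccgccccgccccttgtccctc

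The motifs CACGTG, its longer form TCACGTGA, the forkhead motif as the exact letters TGTTTAC, and the ACGTG core of hypoxia factors were searched on both strands of the 250 bases. The shorter ACGTG lies inside every CACGTG, so those matches overlap. CACGTG was found in Bnip3 at bases -108 to -103 from the start, in Atg7 at -132 to -127 and in Ctsl at -236 to -231, and in none of the windows of the other 5 members that have one. For Atg7 and Ctsl the window lies within the annotated span of the gene, so it precedes the start of an inner transcript. The Atg7 window begins at chr6:114670846, while the gene begins at 114643127. On the minus strand, the Ctsl window spans chr13:64370521-64370770, and the gene reaches 64370772. None of the 4 motifs was found with these exact letters in the windows of Gabarapl1, Ulk1 and Sqstm1. Near matches were not searched. The Gabarapl1 window holds ATAAACA, 1 base from GTAAACA, the reverse complement of TGTTTAC. Of all 32851 windows, 6.02% hold CACGTG, 0.785% hold TCACGTGA, 3.17% hold TGTTTAC and 16.6% hold ACGTG. A match describes letters and not binding. The GC content of the 250 bases searched was 46.8% in Gabarapl1, 67.2% in Ulk1, 63.2% in Sqstm1 and 72.4% in Bnip3, against a median of 52.4% over all windows. For Ulk1 the search and the GC content cover the uncut window, of which 211 bases are shown.

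Levels are given as log2 of the background-subtracted probe signal relative to the 75th percentile of the same array, so 0 stands for that percentile and a step of 1 for a doubling. Values after a group mean are its SD over 4 arrays, and values after a difference are its SE. All 13 member probes were well above background on all 16 arrays, and none was saturated. The 10 muscle markers were well above background on every array, with a median level of 8.69 to 9.42. Under CR 1 of them was higher (Des) and 1 lower (Myh4) in control offspring, with a median difference of -0.15, and 3 were lower (Myh4, Myh1 and Tnni2) in undernourished offspring, with a median of -0.30. Markers of other tissues were unequal between the groups. The median level of 20 brain markers reached 1.24, 0.71, -0.90 and -1.42 for control AL and ranged from -2.41 to -0.79 for undernourished AL, but lay at -6.44 to -5.86 for the CR arrays, where 9 to 14 of the 20 markers were still well above background. The median of 14 skin markers was 0.15 to 1.56 on control AL replicates 1 to 3, and -3.85 to -1.54 on the other 13 arrays. AL and CR arrays also lay on different slides and were scanned on different days, so offspring diet and scan day cannot be told apart.

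**Figure D1:**
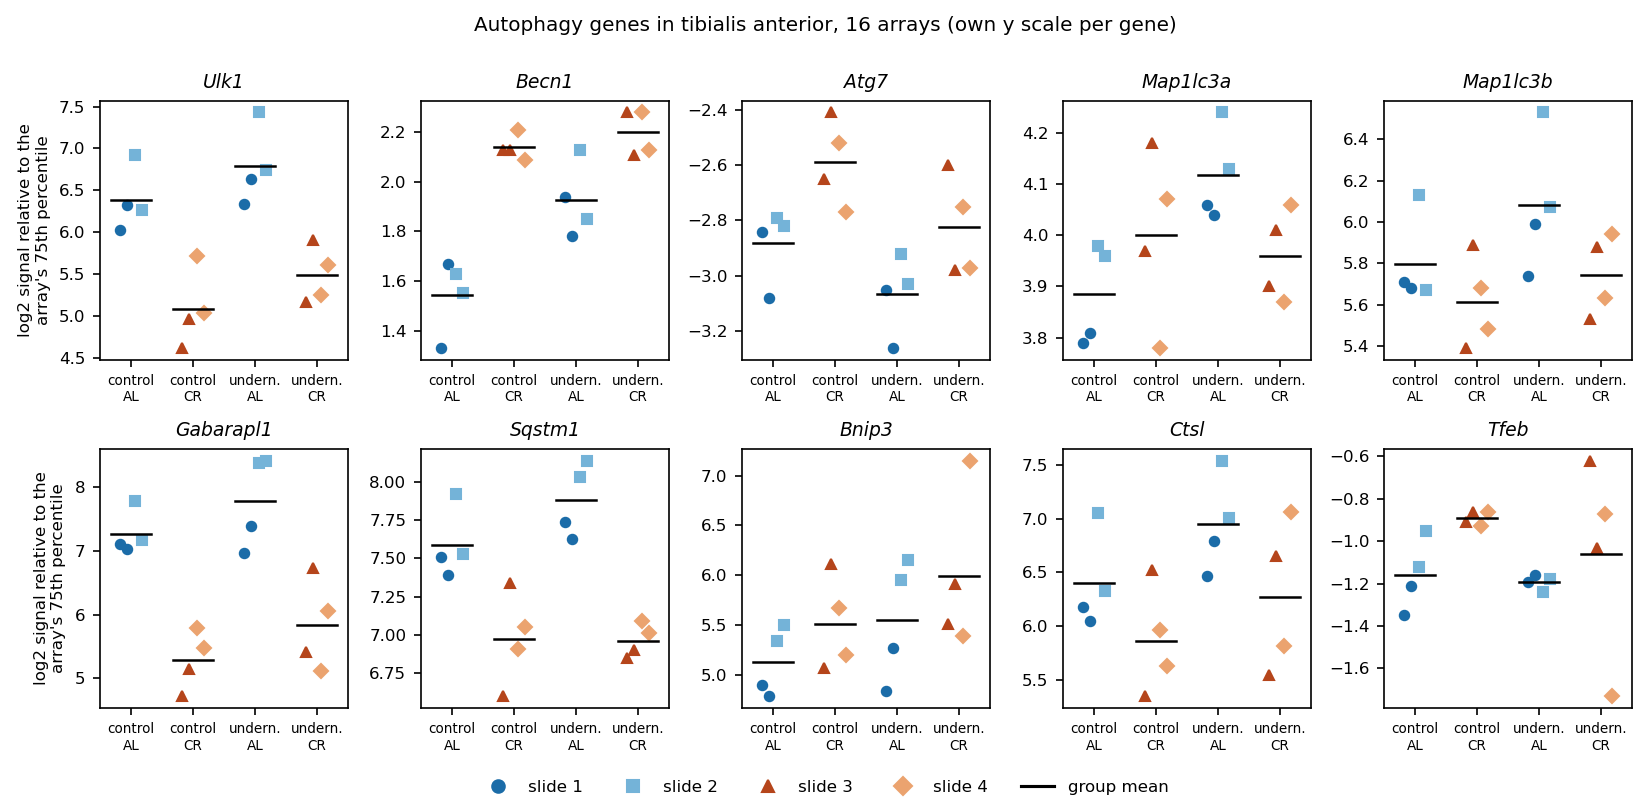
Level of each gene on the 16 arrays (log2 signal relative to the array's 75th percentile, own scale per gene), by group, with the slide as colour and symbol and the group mean as a line. For Gabarapl1, Ulk1 and Sqstm1 every CR array lies below every AL array of the same kind of offspring.

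Calorie restriction was accompanied by lower levels of 3 of the 10 genes in both kinds of offspring. Gabarapl1, an ATG8 protein that becomes attached to autophagosomes, fell 3.97-fold in control and 3.88-fold in undernourished offspring. Ulk1, the kinase that starts autophagy, fell 2.46-fold and 2.47-fold, and the cargo receptor Sqstm1 fell 1.53-fold and 1.9-fold. Becn1 rose 1.51-fold in control offspring, and in undernourished offspring its level was 1.21-fold higher without passing the test.

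In control offspring 1 member was called higher and 3 lower by limma at an adjusted p under 0.05, while 32.3% of the 24828 genes tested were called, 17.2% higher and 15.1% lower. In undernourished offspring none was called higher and 3 lower, against 20.3% of all genes, 10.4% higher and 9.86% lower. The arrays of the diets did not overlap for 6 members in control offspring, where this held for 31.8% of all genes, and for 3 in undernourished offspring, where it held for 26% of all genes. The median difference over the members was -0.04 and -0.25, beside 0.06 and 0.00 over all genes tested. The sizes of the Gabarapl1 differences were uncommon: 4.6% of all genes in control and 2.26% in undernourished offspring had a larger absolute difference. For Ulk1 these shares were 8.63% and 5.02%, for Sqstm1 28.4% and 10.4%, and for Becn1 29.6% and 55.2%.

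**Figure D2:**
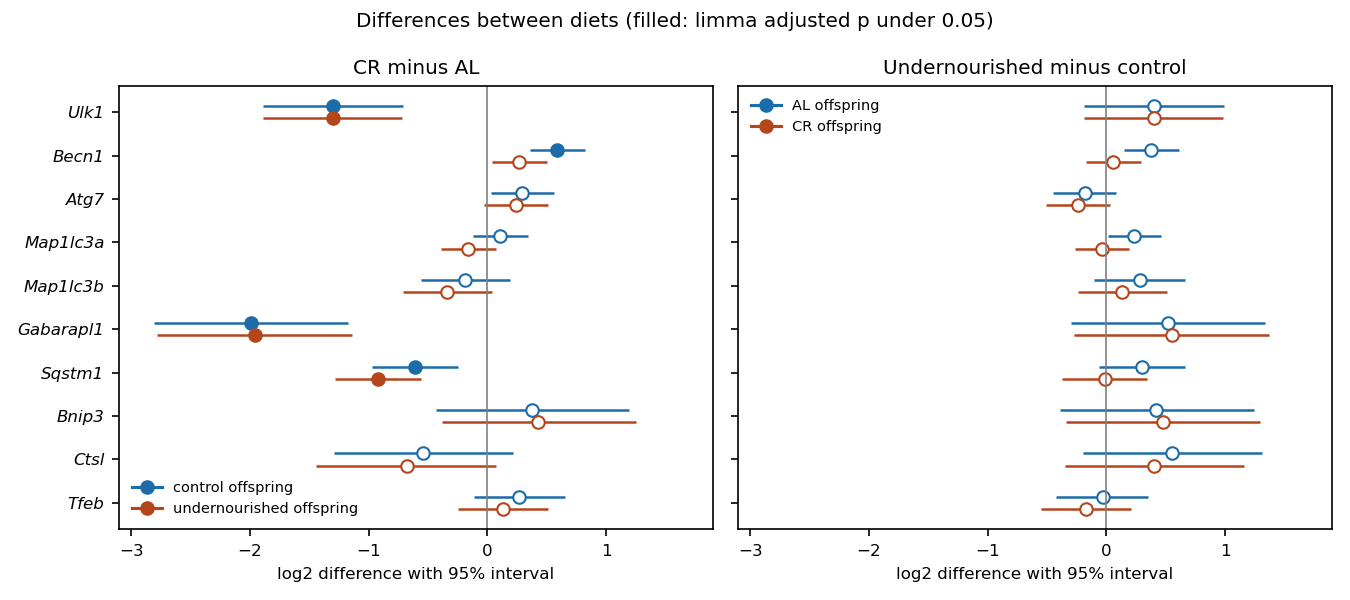
Log2 differences with 95% intervals for the 10 genes, CR minus AL on the left and undernourished minus control on the right; filled points passed an adjusted p under 0.05. Filled points appear only on the left, for Gabarapl1, Ulk1 and Sqstm1 in both kinds of offspring and for Becn1 in control offspring.

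Ulk1 encodes the kinase at the head of the pathway, which is switched on by starvation signals and held off by mTOR. Its level was 6.03, 6.33, 6.92 and 6.26 under control AL and 4.62, 4.97, 5.72 and 5.04 under control CR. On the undernourished arrays it was 6.34, 6.64, 7.43 and 6.74 under AL and 5.17, 5.91, 5.25 and 5.61 under CR. The highest CR array of all, at 5.91, stayed below the lowest AL array, at 6.03. The difference was -1.30 ± 0.27 in control (adjusted p = 0.00258) and -1.30 ± 0.27 in undernourished offspring (adjusted p = 0.00489).

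Becn1 encodes Beclin 1, a scaffold of the lipid kinase complex that marks the site where the autophagosome forms. The control AL arrays gave 1.33, 1.67, 1.63 and 1.55, and the control CR arrays 2.13, 2.13, 2.21 and 2.09, a separation by more than the spread within either group. The undernourished AL arrays gave 1.94, 1.78, 2.13 and 1.85, between both control groups except for the array at 2.13, and the undernourished CR arrays 2.28, 2.11, 2.28 and 2.13. The difference was 0.59 ± 0.11 in control offspring (adjusted p = 0.000989) and 0.27 ± 0.11 in undernourished offspring (adjusted p = 0.0863). In order of mean level the groups ran from control AL (1.55 ± 0.15) through undernourished AL (1.93 ± 0.15) and control CR (2.14 ± 0.05) to undernourished CR (2.20 ± 0.09). The CR groups overlapped each other, and undernourished AL overlapped both of them, while control AL overlapped no other group.

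Atg7 encodes the activating enzyme that both conjugation reactions of autophagy need. Its level was -2.84, -3.08, -2.79 and -2.82 under control AL and -2.65, -2.41, -2.52 and -2.77 under control CR. The groups did not overlap, yet they nearly met, at -2.79 and -2.77, and the difference of 0.29 ± 0.13 did not pass the test (adjusted p = 0.0881). In undernourished offspring the means were -3.07 ± 0.14 under AL and -2.83 ± 0.19 under CR, a difference of 0.24 ± 0.13 (adjusted p = 0.191). The signal of Atg7 was low, with group means of 52.6 to 110 scanner units, and the direction turned with another background correction, normexp, to -0.08 and -0.16.

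Of the ATG8 proteins, Gabarapl1 had the largest difference among the members in both kinds of offspring. The control AL arrays gave 7.11, 7.03, 7.78 and 7.17, and the control CR arrays 4.72, 5.15, 5.79 and 5.48. Undernourished AL gave 6.97, 7.39, 8.39 and 8.42, and undernourished CR 5.42, 6.74, 5.12 and 6.06. No CR array reached an AL array, although the undernourished CR array at 6.74 came near the lowest undernourished AL array at 6.97. The difference was -1.99 ± 0.38 in control (95% interval -2.81 to -1.17, adjusted p = 0.00146) and -1.96 ± 0.38 in undernourished offspring (-2.78 to -1.14, adjusted p = 0.0032). Among the undernourished AL arrays those of slide 2 (8.39 and 8.42) lay above those of slide 1 (6.97 and 7.39).

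Map1lc3a and Map1lc3b encode the LC3 proteins that are widely used to mark autophagosomes, and neither was called in either kind of offspring. With the log2 values that the authors deposited, in which most calls over all genes were higher, Map1lc3a was called higher in both. That was 1 of 16 settings other than leaving out single arrays. Over these its difference ran from -0.08 to 0.61 in control and from -0.23 to 0.41 in undernourished offspring. The group means of Map1lc3a were 3.89 ± 0.10 in control AL, 4.0 ± 0.17 in control CR, 4.12 ± 0.09 in undernourished AL and 3.96 ± 0.09 in undernourished CR. With calorie restriction it differed by 0.11 ± 0.11 in control offspring (95% interval -0.12 to 0.34, adjusted p = 0.453) and by -0.16 ± 0.11 in undernourished offspring (-0.39 to 0.07, adjusted p = 0.317). For Map1lc3b the means were 5.80 ± 0.22, 5.61 ± 0.22, 6.08 ± 0.33 and 5.74 ± 0.20 in the same order of groups. Its differences were -0.19 ± 0.18 (-0.56 to 0.19, adjusted p = 0.449) and -0.34 ± 0.18 (-0.71 to 0.04, adjusted p = 0.192). A fall of either LC3 transcript as large as that of Gabarapl1 lies outside these intervals.

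Sqstm1 encodes p62, which binds ubiquitin-tagged cargo and LC3 and is itself degraded by autophagy. Its level was 7.51, 7.39, 7.92 and 7.53 under control AL and 6.60, 7.34, 6.91 and 7.05 under control CR. In undernourished offspring it was 7.74, 7.63, 8.03 and 8.14 under AL and 6.85, 6.90, 7.09 and 7.01 under CR. The undernourished groups stood clearly apart (nearest arrays at 7.63 and 7.09), and the control groups nearly met (7.39 and 7.34). The difference was -0.61 ± 0.17 in control (adjusted p = 0.0122) and -0.92 ± 0.17 in undernourished offspring (adjusted p = 0.002). The control call was lost when slide 2 (-0.47), slide 3 (-0.61) or slide 4 (-0.61) was left out.

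Bnip3 encodes a mitochondrial outer membrane protein that recruits LC3 for the removal of mitochondria. Its level was 4.90, 4.79, 5.34 and 5.50 under control AL, and 5.07, 6.11, 5.67 and 5.20 under control CR. The undernourished arrays gave 4.84, 5.27, 5.95 and 6.15 under AL and 5.51, 5.91, 5.39 and 7.15 under CR. All groups overlapped, and undernourished CR replicate 4 was the highest of the 16 arrays. The difference was 0.38 ± 0.38 in control (adjusted p = 0.481) and 0.43 ± 0.38 in undernourished offspring (adjusted p = 0.452).

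Ctsl and Tfeb, at the lysosomal end of the pathway, were not called either. The mean of Ctsl was 6.40 ± 0.45 in control AL, 5.87 ± 0.50 in control CR, 6.95 ± 0.45 in undernourished AL and 6.27 ± 0.71 in undernourished CR. It differed by -0.54 ± 0.35 (adjusted p = 0.269) and -0.68 ± 0.35 (adjusted p = 0.186) with calorie restriction, and the arrays of the diets overlapped in both kinds of offspring. Tfeb was -1.35, -1.21, -1.12 and -0.95 under control AL and -0.91, -0.86, -0.93 and -0.86 under control CR. These did not overlap but differed by only 0.27 ± 0.18 (adjusted p = 0.276). In undernourished offspring Tfeb was -1.19, -1.16, -1.24 and -1.18 under AL and -0.62, -1.03, -0.87 and -1.73 under CR, where replicate 4 was the lowest of the 16 arrays. That difference was 0.13 ± 0.18 (adjusted p = 0.645).

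For 3 members a dimmer probe of the same gene was also measured. The other Gabarapl1 probe gave 1.65, 1.58, 2.31 and 1.32 under control AL, -0.09, 0.10, 1.18 and 0.46 under control CR, 1.49, 2.02, 3.48 and 3.22 under undernourished AL, and 0.87, 1.78, 0.15 and -0.20 under undernourished CR. It fell by 1.30 ± 0.48 in control (adjusted p = 0.0466 over 32081 probes) and by 1.9 ± 0.48 in undernourished offspring (adjusted p = 0.0115), with overlap of the diets in the latter. For the other Ulk1 probe the differences were -0.63 ± 0.30 (adjusted p = 0.122) and -0.82 ± 0.30 (adjusted p = 0.0665), in the direction of the brighter probe but not called. The other Map1lc3b probe differed by 0.23 ± 0.28 (adjusted p = 0.567) and 0.15 ± 0.28 (adjusted p = 0.744), opposite in sign to the brighter probe, with no call from either.

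The brain markers moved with the same contrast. In control offspring 18 of 20 were lower and 1 higher under CR, with a median difference of -5.42, and in undernourished offspring 15 were lower and 1 higher, with a median of -3.42. Skin markers were lower in 12 of 14 in control offspring (median -2.87) and in none in undernourished offspring (median -0.03), and macrophage and leukocyte markers in 8 of 11 (median -0.96) and 1 of 11 (median -0.29). In bulk RNA, fewer cells of a type and less RNA per cell cannot be told apart. With a brain marker index as a covariate the control differences were -2.31 for Gabarapl1, -1.62 for Ulk1, -0.80 for Sqstm1 and 0.51 for Becn1, and in undernourished offspring -2.04, -1.39, -0.97 and 0.25. Without the control AL arrays of highest brain index, replicates 1 and 2, the control differences were -2.19, -1.51, -0.75 and 0.55. The same genes were called as in the full comparison in each case. The index did not overlap between the diets, with 0.0976 to 0.133 under CR and 0.184 to 1 under AL. Neither step can therefore tell offspring diet apart from brain transcripts.

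**Figure D3:**
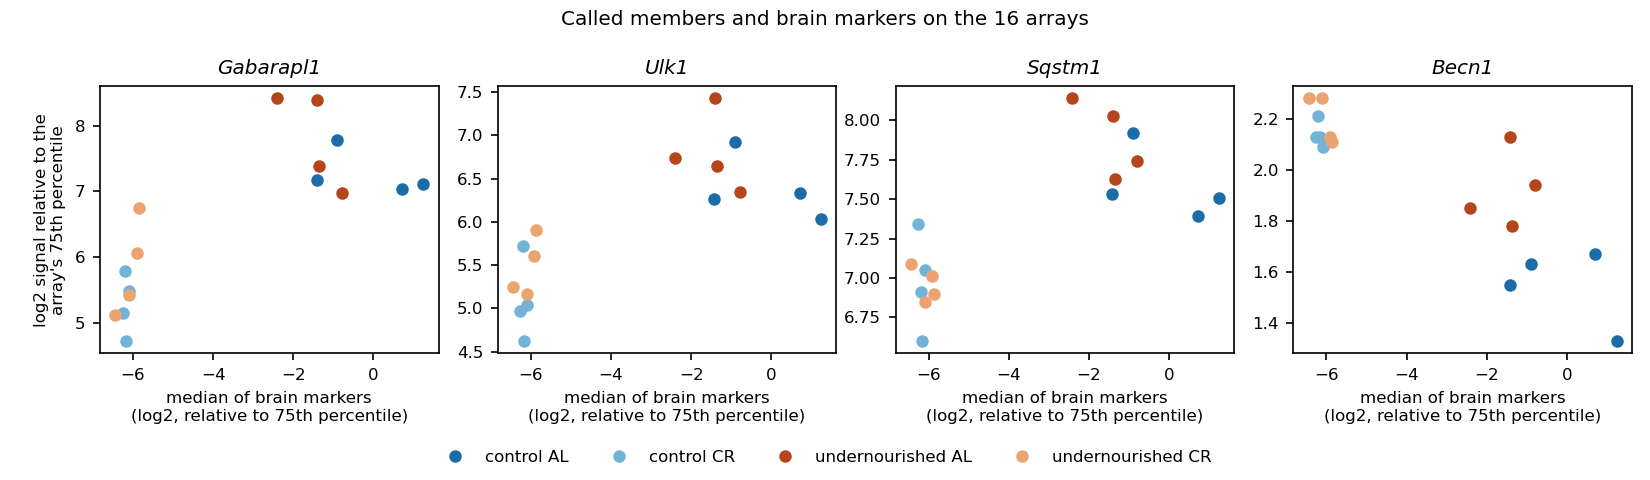
Level of the 4 called genes against the median level of 20 brain markers on each array (both log2 relative to the array's 75th percentile), coloured by group. Brain markers separate the CR arrays (-6.44 to -5.86) from the AL arrays (-2.41 to 1.24).

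Leaving out the 6 arrays with raised skin or liver markers left only replicate 4 in control AL, whose spread was then taken from the other groups. The control calls of the members were lost, as were most calls over all genes, so this fit cannot decide them. The control differences were -1.70 for Gabarapl1, -1.02 for Ulk1, -0.43 for Sqstm1 and 0.59 for Becn1. Over all arrays they were -1.99, -1.30, -0.61 and 0.59. In undernourished offspring the same step kept the 3 calls, with -2.06, -1.23 and -0.85. The authors' own log2 values, in which the median of all genes was 0.29 higher under CR in control and 0.24 higher in undernourished offspring, gave 5 members higher and 2 lower in control offspring and 5 higher and 3 lower in undernourished offspring. Of all 24828 genes tested, 13992 (11383 higher) were called with these values in control offspring and 11848 (10321 higher) in undernourished offspring. In the authors' values Gabarapl1 (-1.52 and -1.37) and Ulk1 (-0.79 and -0.74) were lower in both, Becn1 was higher in both (1.02 and 0.75), and Sqstm1 was not called in control offspring (-0.21, adjusted p = 0.284).

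Maternal diet was compared within each offspring diet. In AL offspring limma called none of the 10 members, while it called 0.0322% of all genes, 8 in number (0.0121% higher and 0.0201% lower in undernourished offspring). That test left out the slide. With slide as a block 1969 genes were called, and again none of the 10 members. At an unadjusted p under 0.05 stood 2 members, Becn1 and Map1lc3a, as did 4795 of all genes. These were also the 2 members whose arrays did not overlap, which held for 5.21% of all genes. The level of 8 of the 10 was higher on average in undernourished than in control AL, with a median difference of 0.34 beside 0.07 over all genes. That median was 0.16 with the brain index as a covariate, 0.17 without control AL replicates 1 and 2, 0.19 with quantile normalization, and 0.22 with the authors' log2 values, without slide 2 or without undernourished AL replicate 3.

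Becn1 was 0.38 ± 0.11 higher in undernourished AL than in control AL (95% interval 0.15 to 0.61, adjusted p = 0.154), since its lowest undernourished array (1.78) lay above the highest control array (1.67). Each of slides 1 and 2 held 2 arrays of both groups, and within them the Becn1 difference was 0.36 and 0.40. With slide as a block its adjusted p was 0.0521. Map1lc3a gave 3.79, 3.81, 3.98 and 3.96 on the control arrays against 4.06, 4.04, 4.24 and 4.13 on the undernourished arrays. Its difference was 0.23 ± 0.11 (adjusted p = 0.247), with 0.25 within slide 1 and 0.22 within slide 2. The other differences were 0.52 ± 0.38 for Gabarapl1, 0.40 ± 0.27 for Ulk1, 0.55 ± 0.35 for Ctsl, 0.42 ± 0.38 for Bnip3, 0.30 ± 0.17 for Sqstm1, 0.28 ± 0.18 for Map1lc3b, -0.18 ± 0.13 for Atg7 and -0.03 ± 0.18 for Tfeb. For Gabarapl1 the difference was 0.11 within slide 1 and 0.93 within slide 2. In this contrast the median difference of the brain markers was -1.58 and of the skin markers -2.82, with no marker of either list called.

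In CR offspring limma called no member and no gene, so the share called was 0%, with 715 of all genes and none of the members at an unadjusted p under 0.05. No member's arrays stood apart, which held for 2.72% of all genes. The differences, undernourished minus control, ran from -0.24 ± 0.13 for Atg7 to 0.55 ± 0.38 for Gabarapl1. Sqstm1 differed by -0.01 ± 0.17 (95% interval -0.37 to 0.34) and Becn1 by 0.06 ± 0.11 (-0.17 to 0.29). For Gabarapl1 the difference was 1.15 within slide 3 and -0.04 within slide 4, for Ulk1 0.74 and 0.05, and for Bnip3 0.12 and 0.83, so for these genes the slides differed by more than the difference itself.

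Whether the response to calorie restriction depended on the diet of the dam was tested as the interaction of both diets. limma called no member, and 0.00403% of all genes, which is 1 gene, with 2397 genes and no member at an unadjusted p under 0.05. The interaction was smallest for Ulk1, at 0.00 ± 0.39, and Gabarapl1, at 0.03 ± 0.54. Its 95% interval for Gabarapl1 ran from -1.13 to 1.19, so these arrays leave room for a sizeable difference in response. For Becn1, called in control offspring only, it was -0.32 ± 0.15 (-0.65 to 0.01, adjusted p = 0.524), and for Sqstm1 -0.31 ± 0.24 (-0.82 to 0.20, adjusted p = 0.659). The gap between the Becn1 calls is thus not shown to be a difference between the kinds of offspring. The remaining members ranged from -0.27 ± 0.15 (Map1lc3a) to 0.05 ± 0.54 (Bnip3).

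Among the members, many pairs varied together from array to array under AL, and fewer under CR. Under AL no pair among Map1lc3a, Map1lc3b, Gabarapl1, Sqstm1, Bnip3, Ulk1 and Ctsl had a Pearson's r below 0.69. Ulk1 reached 0.97 with Map1lc3b and 0.95 with Ctsl. The pairs described next are examples. Under CR the control array with the highest Gabarapl1 (5.79) also had the highest Ulk1 (5.72), and the undernourished array with the highest Gabarapl1 (6.74) the highest Ulk1 (5.91). Under CR Sqstm1 did not share this order: the control CR array with its highest level (7.34) was the third for Gabarapl1 (5.15). Map1lc3b and Ctsl shared their highest array in every group, control AL replicate 3 (6.13 and 7.05), control CR replicate 2 (5.89 and 6.52), undernourished AL replicate 3 (6.53 and 7.54) and undernourished CR replicate 4 (5.94 and 7.06). As a description over 8 arrays of each diet, Pearson's r of Gabarapl1 was 0.84 with Ulk1 and 0.90 with Sqstm1 under AL, and 0.91 and 0.04 under CR, while that of Map1lc3b with Ctsl was 0.97 under both. These points share each array's scaling and slide, and each set of 8 holds both kinds of offspring.

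**Figure D4:**
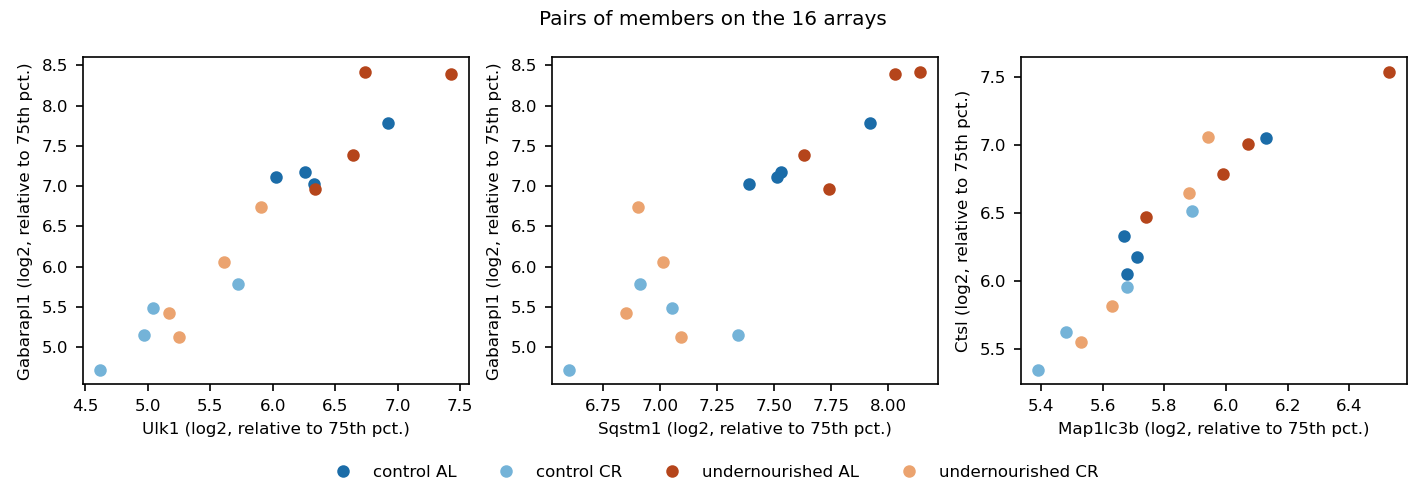
Gabarapl1 against Ulk1, Gabarapl1 against Sqstm1 and Ctsl against Map1lc3b on the 16 arrays (log2 relative to the array's 75th percentile), coloured by group. Arrays of high Ulk1 tend to have high Gabarapl1, and arrays of high Map1lc3b high Ctsl, under either diet, while Gabarapl1 rises with Sqstm1 among the AL arrays and shows no such trend among the CR arrays.

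The genes whose levels over the 16 arrays were most like those of the 3 members called in both kinds of offspring were sought among 14937 other named genes, by Pearson correlation. For Gabarapl1 these were Klhl24, a kelch-like ubiquitin ligase adaptor (r = 0.981), Trim63, the muscle ubiquitin ligase MuRF1 (0.979), and the stress gene Gadd45a (0.969). The same 3 genes were nearest to Ulk1, with 0.977 for Gadd45a, 0.974 for Klhl24 and 0.963 for Trim63. For Sqstm1 they were Ube2b, a ubiquitin-conjugating enzyme (0.957), the lipoprotein receptor Vldlr (0.951) and the F-box gene Fbxo4 (0.949). Over deviations from the group means, which take out the difference between the groups, the correlations were 0.869 to 0.931 for Gabarapl1, 0.863 to 0.914 for Ulk1 and 0.805 to 0.833 for Sqstm1. These are the highest of many values and come with no test.

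The pathway lists held 102 autophagy and lysosome genes, of which 98 were tested, all but Atg9a, Gabarapl2, Rab7 and Epg5. Of the 88 tested that are not among the 10 genes, 17 were higher and 6 lower under CR in control offspring, and 7 higher and 5 lower in undernourished offspring. The median difference was 0.12 and 0.00. These shares are near or below those over all genes (32.3% and 20.3% called). Without the arrays of raised skin or liver markers only 1 control AL array was left, and most control calls of these genes were lost, as over all genes. In control offspring the counts were 6 higher and 6 lower without control AL replicates 1 and 2, and 4 and 4 with the brain index as a covariate. With the authors' values they were 66 higher and 2 lower in control and 64 higher and 3 lower in undernourished offspring. Over all genes, 4384 were called in control offspring without control AL replicates 1 and 2, and 3174 with the brain index. The authors' values gave 13992 calls over all genes in control offspring (11383 higher) and 11848 in undernourished offspring (10321 higher).

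**Figure D5:**
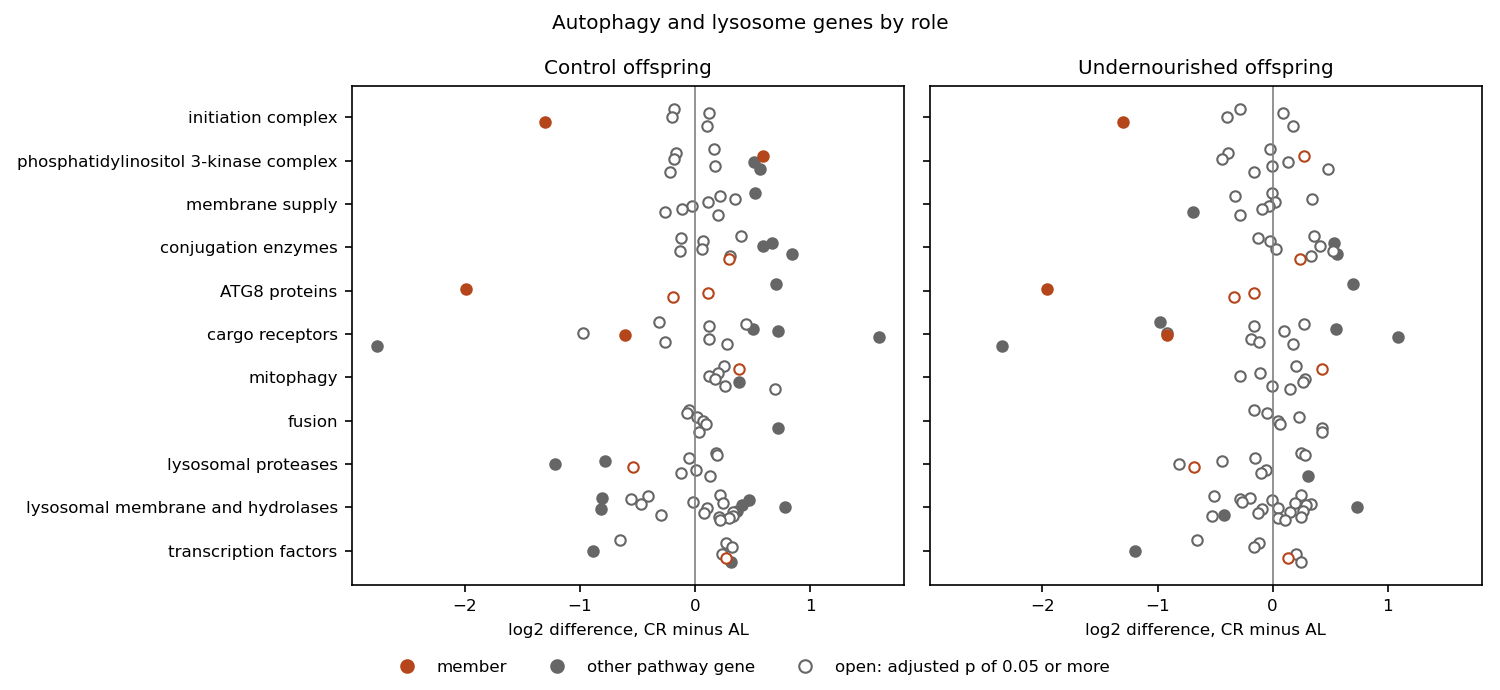
Log2 difference, CR minus AL, of the 98 autophagy and lysosome genes tested, by role and kind of offspring, with the 10 described genes in colour and filled points for an adjusted p under 0.05. Within the ATG8 row Gabarapl1 lies at -1.99 and -1.96 and Gabarap at 0.70 in both panels.

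Among the starters of autophagy, none of the other 4 initiation genes was called. In the lipid kinase complex 2 of 7 were higher in control offspring, Rubcn, which restrains the complex (0.56 ± 0.19, adjusted p = 0.0332), and Pik3c3, its catalytic subunit (0.51 ± 0.19, adjusted p = 0.0485), and none of 7 in undernourished offspring. The membrane supply list had 1 of 8 higher in control offspring, the lipid transfer gene Atg2a (0.52 ± 0.11, adjusted p = 0.0033), and 1 of 8 lower in undernourished offspring, Wipi1, which binds the lipid that the kinase makes (-0.69 ± 0.16, adjusted p = 0.00791). Of the conjugation enzymes 3 of 9 rose in control and 2 of 9 in undernourished offspring. They were Atg3, the enzyme that passes ATG8 proteins to lipid (0.67 ± 0.10 and 0.53 ± 0.10, adjusted p = 0.000296 and 0.00274), the ATG8 protease Atg4d (0.84 ± 0.16 and 0.56 ± 0.16, adjusted p = 0.00119 and 0.0224) and, in control offspring, Atg4a (0.59 ± 0.14, adjusted p = 0.00584).

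Gabarap, the close relative of Gabarapl1, moved opposite to it. Under AL its mean level was 2.53 ± 0.17 for control and 2.57 ± 0.02 for undernourished offspring, and under CR 3.22 ± 0.05 and 3.27 ± 0.21, with no overlap between diets. The difference was 0.70 ± 0.12 in both kinds of offspring (adjusted p = 0.000546 and 0.00112). Of 11 other cargo receptors 3 were higher and 1 lower in control offspring, and 2 higher and 2 lower in undernourished offspring. Wdfy3, a scaffold for aggregate clearance, had the largest difference, its mean level going from 0.46 ± 0.56 under AL to -2.30 ± 0.14 under CR for control offspring and from -0.22 ± 0.19 to -2.56 ± 0.12 for undernourished offspring. It fell by 2.76 ± 0.21 and 2.35 ± 0.21 (adjusted p = 4.38e-06 and 2.94e-05). Over 32 other settings the Wdfy3 difference ran from -3.01 to -1.34 in control and from -2.51 to -1.41 in undernourished offspring. Brain markers were lower in the same comparisons, and their part in the fall of Wdfy3 was not tested. The glycogen receptor Stbd1 rose by 1.60 ± 0.26 and 1.09 ± 0.26 (adjusted p = 0.000483 and 0.0101). Optn, a receptor for ubiquitin-tagged cargo, was higher in control offspring (0.72 ± 0.20, adjusted p = 0.0135), and Calcoco1, a receptor for the endoplasmic reticulum, lower in undernourished offspring (-0.98 ± 0.22, adjusted p = 0.00697).

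Of 7 other mitophagy genes only Phb2, an inner membrane receptor, was called, in control offspring (0.38 ± 0.13, adjusted p = 0.0413), and of 7 fusion genes only Vps39, a tethering subunit, also in control offspring (0.72 ± 0.22, adjusted p = 0.0207). Lysosomal genes went both ways. In control offspring 2 of 8 other proteases fell, Ctsk (-1.22 ± 0.28, adjusted p = 0.00415) and Ctsh (-0.78 ± 0.21, adjusted p = 0.0103), and in undernourished offspring 1 of 8, the peptidase Tpp1, rose (0.31 ± 0.10, adjusted p = 0.0374). Among 20 membrane and hydrolase genes 4 were higher and 2 lower in control offspring, and 1 higher and 1 lower in undernourished offspring. The glucuronidase Gusb was higher in both (0.78 ± 0.12 and 0.73 ± 0.12, adjusted p = 0.000354 and 0.00118). The proton pump subunit Atp6v1a was lower in control offspring (-0.81 ± 0.21, adjusted p = 0.00863), and the sialidase Neu1 in undernourished offspring (-0.42 ± 0.12, adjusted p = 0.0206). Over 32 other settings the Atp6v1a difference ran from -1.2 to -0.19. Macrophages also express Ctsh, and 8 of 11 macrophage and leukocyte markers were lower in the same comparison, whose part in this value was not tested.

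Of the 6 other transcription factors Mitf, a relative of Tfeb, was lower in both kinds of offspring (-0.89 ± 0.22 and -1.20 ± 0.22, adjusted p = 0.00747 and 0.00236). Zkscan3, a repressor of autophagy genes, was higher in control offspring (0.31 ± 0.11, adjusted p = 0.0343). The calls of Rubcn, Pik3c3, Phb2, Vps39 and Zkscan3 in control offspring and of Atg4d, Tpp1 and Neu1 in undernourished offspring were lost without some single arrays, held in 10, 5, 8, 14, 12, 12, 9 and 13 of 16 such fits, and never changed sign in them. None of the 88 genes was called by maternal diet in CR offspring or in the interaction. In AL offspring none was called either, but 1 was called higher and 2 lower with slide as a block, and 1 higher and 3 lower without slide 2 or without control AL replicate 4. Over all genes, 1969 were called with slide as a block, 3035 without slide 2 and 2319 without control AL replicate 4.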

How the data were processed

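Expression was measured on 16 1-colour Agilent mouse arrays, 4 per group. The deposited intensity values are, per the file headers, processed signals of Agilent Feature Extraction 10.5.1.1 on probes designed on build mm9, with background subtracted and no normalization between arrays. The deposited files have other columns too, of which spot type and the flags for signal above background, saturation and outliers were used. The authors also deposited log2 values, and how they normalized them is not stated in the sources at hand. Their column medians ran from -0.0994 to 0.0370, and the absolute median of a probe over the arrays was itself 0 at the median over probes. Array-to-array differences tracked those of the scanner files (median correlation 0.957, slope 0.816, 120 pairs). The direction is thus known, while the scale is narrower than log2 signal. Centring of probes was checked by that 1 median only. They served as an alternative.

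Control and outlier spots were dropped, repeated probes averaged, and log2 signals set against each array's 75th percentile (387 to 829 scanner units). A probe stayed in if 4 or more arrays had it well above background (32081 did), and the brightest stood for its gene. The number of arrays limits the precision, and 66.4% to 78.5% of an array's spots passed that flag. Accessions were named through RefSeq (GRCm38.p6): 24844 of 41174 probes matched, 16330 did not. limma 3.58.1 in R 4.3.3 was fitted with 1 mean per group over 24828 genes, with two-sided p-values adjusted by Benjamini-Hochberg over all of them and calls at an adjusted p under 0.05. It was tested on simulated data.

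Members, gene lists and tests were chosen with earlier results of these data known. Named are all members, and per list up to 3 called genes of largest change in each comparison of CR with AL, except 1 result that is not reported here. Alternatives covered background, normalization, filters, probes, slide, replicate block, other tissues' markers and left-out arrays. The normexp correction (offset 50) used median rather than mean spot signals, with outlying local backgrounds set to the array's median; this and leaving out slides were chosen after seeing the data. Equal replicate numbers of control and undernourished offspring share a slide under either diet. Their deviations from the group means correlated at 0.11 to 0.44 under AL, where equal numbers were the best match for replicates 1 and 4 only. In CR offspring the correlations were 0.02 to 0.23, with a best match for replicates 1 and 2 only, and between the diets -0.14 to 0.08. A pairing of arrays by number cannot be told apart from a shared slide.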

Additional observations from a re-analysis of the deposited data

Results flagged for a closer look

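Of 40 sets of 4 arrays, 10 genes in 4 groups, 1 held an array far from the others. Map1lc3b stood at 6.13 in control AL replicate 3, where the other arrays of the group lay between 5.67 and 5.71, so the gap took up 0.913 of the group's range, above Dixon's limit for 4 samples. Chance gives such a gap in about 1 of 20 groups. Gabarapl1 (7.78), Ulk1 (6.92), Sqstm1 (7.92), Ctsl (7.05), Map1lc3a (3.98) and Atg7 (-2.79) were also highest in their group on this array. It was among the arrays with raised skin or liver markers.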

How the results depend on the processing

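In control offspring 4 members were called, and 7 with the authors' log2 values, 2 without slide 3 and 0 without the arrays of raised skin or liver markers; in undernourished offspring 3 were called, and 8 with the authors' values. Sqstm1 lost its control call without slide 2 (-0.47), 3 (-0.61) and 4 (-0.61), Ulk1 without slide 3 (-1.01), and Gabarapl1 its undernourished call without slide 4 (-1.71). Quantile normalization added Atg7 (0.56 and 0.41). Leaving out any single array kept 4 and 3 calls. With the replicate number as a block, 4, 3, 0, 0 and 0 members were called in the 5 comparisons, as without it, so this block changed no call of a member. No member was called by maternal diet or in the interaction under any setting.

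Of the differences whose sign turned, Map1lc3a was called with the authors' values and Neu1 in the original comparison, and the others were called under neither setting. CR against AL in control offspring: Map1lc3a -0.08 (quantile), Map1lc3b 0.22 (authors' values), 0.02 (mean of probes) and 0.01 (raised arrays out), Bnip3 -0.06 (brain index), Atg7 -0.08 (normexp). In undernourished offspring: Map1lc3a 0.41 and Map1lc3b 0.25 (authors' values), Bnip3 -0.07 (without slide 1), Atg7 -0.16 (normexp), Tfeb -0.11 (without slide 3) and -0.02 to 0.35 without single arrays; Neu1 0.19 (authors' values). Maternal diet in AL: Bnip3 -0.07 (raised arrays out), Tfeb 0.02 (quantile), 0.03 (authors' values), 0.11 (without slide 2) and -0.10 to 0.04 without single arrays. In CR: Map1lc3a 0.04, Gabarapl1 -0.04 and Sqstm1 0.07 (without slide 3), Tfeb 0.06 (without slide 4), and without single arrays -0.11 to 0.02 for Map1lc3a, -0.14 to 0.11 for Sqstm1 and -0.32 to 0.05 for Tfeb. Interaction: Map1lc3b 0.02 (quantile) and 0.02 (authors' values), Gabarapl1 -0.29 (mean of probes), -0.36 (raised arrays out), -0.38 (without slide 1) and -0.56 (3), Bnip3 -0.16 (without slide 1) and -0.30 (4), Ulk1 0.15 (quantile), 0.05 (authors' values), 0.23 (brain index), 0.20 (2 brain arrays out), 0.09 (without slide 2) and 0.34 (4), Atg7 0.01 (brain index), 0.09 (raised arrays out) and 0.03 (2 brain arrays out), Ctsl 0.00 (quantile), 0.01 (authors' values), 0.13 (brain index), 0.14 (2 brain arrays out) and 0.10 (without slide 3), Tfeb 0.04 (raised arrays out), 0.00 (without slide 1) and 0.09 (4). Without single arrays the interaction ran from -0.26 to 0.00 for Map1lc3b, -0.27 to 0.27 for Gabarapl1, -0.33 to 0.25 for Bnip3, -0.18 to 0.21 for Ulk1, -0.13 to 0.01 for Atg7, -0.41 to 0.10 for Ctsl and -0.28 to 0.08 for Tfeb. The cause of these shifts was not tested.

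Over all genes, 8008 were called in control offspring, but 13992 (11383 higher) with the authors' values, 12059 (4112 higher) with normexp, 12342 without a filter on dim probes, 3174 with the brain index, 4384 without the 2 brain arrays, 352 without raised arrays, and 4576, 3555 and 5260 without slides 1, 3 and 4. In undernourished offspring 5039 became 11848 (10321 higher), 13099 (3002 higher) and 10075 with the first 3 of these, 2910 without raised arrays, and 1602 and 1926 without slides 3 and 4. The 8 genes called by maternal diet in AL became 1969 with slide as a block, 3035 without slide 2 and 2319 without control AL replicate 4. The fit on only the 2 groups compared was not run for the interaction, which needs all 4.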
